A study of Mus musculus with 4 samples.

Results

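The genes described here are 10 genes of T cells and natural killer (NK) cells, namely Cd3e, Cd3g, Cd8a, Cd4, Cd2, Cd7, Gzma, Gzmb, Nkg7 and Klrk1. They were picked out by gene name, out of 34761 gene names on the array, and they are read by 14 probes on 41 spots. The choice of genes was made with earlier results of these data known. The livers came from male C57BL/6 mice, an inbred laboratory strain, which began a high-fat, high-sucrose (HFHS) diet at 5 weeks of age. Groups were 0, 5, 10 and 15 weeks on that diet, so that the mice were 5, 10, 15 and 20 weeks old, and each time point is 1 array. The series text gives 4 mice per time point, and whether an array holds RNA of 1 mouse or of a pool is not given in the sources used here. The 0-week group is the only one without the diet, and it is also the youngest. No age-matched mice without the diet are analysed here, so diet and age cannot be told apart.

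T cells recognise peptides through the T cell receptor, whose signal is carried by the CD3 chains and steered by the coreceptors CD4 and CD8. Cytotoxic T cells and NK cells kill by releasing granules that hold perforin and granzymes, and NK cells decide through a balance of activating and inhibitory receptors. The liver holds a resident population of both, in the sinusoids beside Kupffer cells, and such cells are a small part of a liver that is mostly hepatocytes.

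Levels are the log2 of the processed signal relative to the 75th percentile of the array, so that 0 is the level of that percentile. A gene is called measured where its probe stood well above background on the 2 arrays compared, and higher or lower where these differed by 2-fold or more. Where the probe was above background on 1 array only, the fold is a lower bound against the dim probe's own level or the floor of that array, whichever is higher. Where the dim probe's own level was the higher, the value is the observed fold and no strict bound. All such values also carry the spot error of a dim probe. The floor is the lowest level that counted as above background, which was −3.59, −3.44, −3.58 and −4.11 at 0, 5, 10 and 15 weeks. With 1 array per time point no difference has a replicate check and none was tested. The only error available is that between spots of 1 array, taken from 393 probes spotted 10 times, whose median SD was 0.0654 to 0.0744 on the log2 scale for probes above background and 0.234 to 0.373 for those below it. Between 44.5% and 48.3% of the 59305 non-control spots were well above background, and 0 spots were saturated. In whole liver RNA, fewer cells of a type and less RNA per cell cannot be told apart.

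The measured genes of the set were mostly higher on diet, with a median of 1.06 (log2) at 10 weeks and 0.77 at 15 weeks. The order of these times depends on the scaling: against the median of all measured genes they were 1.07 and 1.02, and with spike-in scaling 1.03 and 1.27. Cd7 was 6.49-fold and Gzma 4.52-fold higher at 10 weeks than at 0 weeks, and Gzmb, which was above background at 10 and 15 weeks only, was at least 4.86-fold higher. From 10 to 15 weeks Gzma, Gzmb and Cd4 were at least 2-fold lower, Cd4 narrowly and on 1 of its 2 probes. The Gzma and Cd4 calls did not hold under every scaling. The 1 probe of Cd3e was nearly level over the 4 arrays, and whether it reads the Cd3e transcript alone was not tested. Cd8a and Klrk1 were well above background on none of the 4 arrays.

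**Figure D1:**
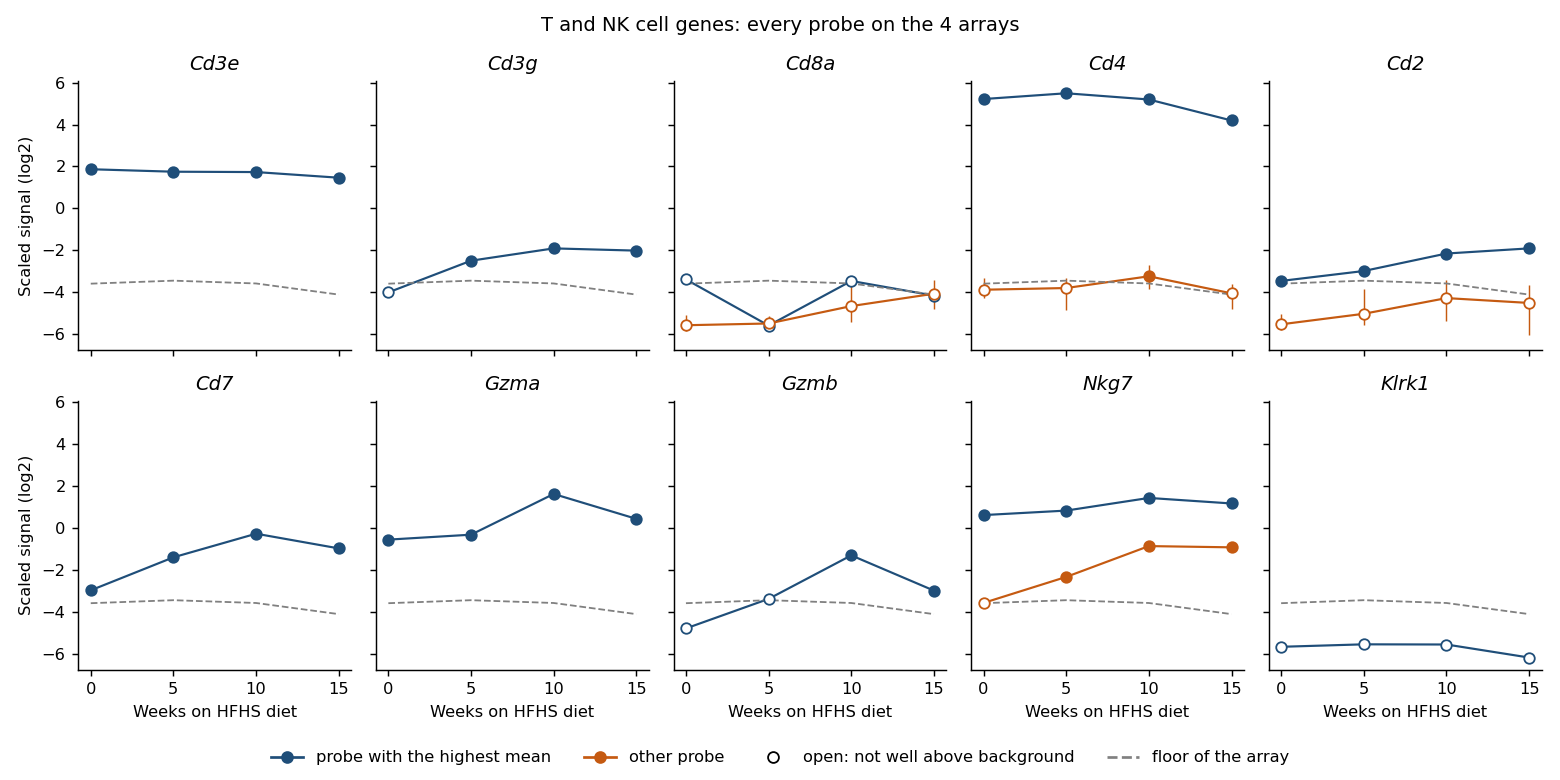
Scaled signal (log2) of every probe of the 10 genes against weeks on the HFHS diet, 1 array per time point. Filled points are well above background and open points are not, vertical lines span the lowest to the highest spot of probes spotted 10 times, and the dashed line is the floor of each array. Gzma and Gzmb peak at 10 weeks, and every point of Cd8a and Klrk1 is open.

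The CD3 chains are the signalling part of the T cell receptor. Cd3e, which encodes the epsilon chain, read 1.87 at 0 weeks, 1.75 at 5 weeks, 1.73 at 10 weeks and 1.47 at 15 weeks. These levels are close to each other, with the 15-week array the lowest. The differences from 0 weeks were −0.12, −0.13 and −0.40 (log2), the last 1.32-fold, with a spot error of 0.0853 to 0.0856 for the first and the second. At 15 weeks the median of all measured genes stood at −0.25, and against it Cd3e differed by −0.15. With spike-in scaling the sign turned, to 0.10.

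Cd3g, which encodes the gamma chain, read −4.00 at 0 weeks, where it was not well above background, and −2.49, −1.90 and −2.01 at 5, 10 and 15 weeks, where it was. The 3 arrays on diet were thus all above the 0-week array. The bounds were at least 2.14-fold at 5 weeks, at least 3.21-fold at 10 weeks and at least 2.98-fold at 15 weeks. The spot errors of these differences were large, at 0.589, 0.580 and 0.575 (log2), beside bounds of 1.09, 1.68 and 1.58. The spot at 5 weeks lay among bright neighbours, with 5 of 44 surrounding spots at least 4-fold above the median of the same probes on the other 3 arrays, and there were 0 such neighbours at 0, 10 and 15 weeks. The part of those neighbours in the 5-week value was not tested, and the bounds at 10 and 15 weeks rest on spots without them. The 2 CD3 genes of the set therefore did not read alike, and each has 1 probe. At 0 weeks the Cd3e probe read 1.87, far above Cd3g and above Cd3d, the gene of another CD3 chain, at −1.88. Whether the Cd3e probe reads the Cd3e transcript alone in liver was not tested, so its level values may not be those of Cd3e.

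The coreceptors bind the MHC molecule beside the T cell receptor, CD8 on class I and CD4 on class II. Cd8a, the alpha chain of CD8, has 2 probes and neither was well above background on any array. The probe with 1 spot read −3.38, −5.58, −3.46 and −4.15 at 0, 5, 10 and 15 weeks. The probe with 10 spots read −5.57, −5.48, −4.65 and −4.07, with SDs over its spots of 0.251, 0.193, 0.625 and 0.437. At 15 weeks 3 of its 10 spots were above background, and 0 of 10 were at each earlier time. No fold is given for Cd8a, since both sides of each comparison lie in the background.

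Cd4 has 2 probes that read differently, and their last 30 bases are shown because the result for this gene turns on which of them is read. Capitals mark AATAAA, the letters of the common polyadenylation signal, which were searched on the probe strand and stand in 10.1% of all 55681 probes. In build mm9 the downstream probe lies at chr6:124814711-124814770 and the upstream probe at chr6:124817706-124817765, both on the minus strand.
Cd4 downstream probe: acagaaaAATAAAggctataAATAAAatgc
Cd4 upstream probe: gcagtgtctactgagtgaaggtgataaggt

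The downstream Cd4 probe, which has 1 spot, read 5.22, 5.49, 5.19 and 4.19 at 0, 5, 10 and 15 weeks, well above background on all 4 arrays. The first 3 levels were close together and the 15-week level was the lowest. It was 2.03-fold lower at 15 than at 0 weeks (log2 −1.02, spot error 0.0603) and 2.001-fold lower than at 10 weeks. Against the median of all measured genes the first of these differences was −0.77, and under the other scalings it lay between −0.95 and −0.52, below 2-fold. The upstream probe, which has 10 spots, read −3.88, −3.79, −3.23 and −4.05, with SDs over its spots of 0.365, 0.541, 0.339 and 0.409. It counted as above background at 10 weeks only, with 5 of 9 usable spots, against 2, 1 and 4 of 10 spots at 0, 5 and 15 weeks. Its highest level was thus at 10 weeks, by 1.28-fold at least over 0 weeks, and at 15 weeks it was back in the background. That bound, 0.35 (log2), is smaller than the spot error of the difference, 0.639. At 5 weeks 1 of its spots had 9 bright neighbours. The downstream probe alone carries the value for 15 weeks, and which probe reads the Cd4 transcript in liver was not tested.

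CD2 is an adhesion receptor of T and NK cells that binds CD48 on the cell it meets. The Cd2 gene also has 2 probes, shown because the upstream one joins stretches 3180 bases apart end to end, at chr3:101083802-101086981 in mm9, while the downstream one is contiguous at chr3:101079831-101079890, both on the minus strand. Capitals again mark AATAAA.
Cd2 downstream probe: tccAATAAAaagctgtgtggatttatcttc
Cd2 upstream probe: aaaggtctgtccttctatgtcacagtgggg

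The downstream Cd2 probe read −3.46, −2.98, −2.15 and −1.90 at 0, 5, 10 and 15 weeks, above background on all 4 arrays and higher at each later time, except that after normexp the step from 10 to 15 weeks was −0.02 (log2). It was 1.39-fold higher at 5 weeks, 2.47-fold higher at 10 weeks and 2.93-fold higher at 15 weeks than at 0 weeks, with spot errors of 0.491, 0.465 and 0.441 on the log2 scale. The 5-week difference of 0.47 was smaller than its spot error. After normexp, a background correction that with its offset of 50 pulls dim probes together, the differences at 10 and 15 weeks were 0.51 and 0.49 (log2), so that both calls were lost. The upstream probe was never above background over its 10 spots and read −5.52, −5.02, −4.27 and −4.51, with SDs of 0.265, 0.594, 0.701 and 0.656. Cd48, the gene of the binding partner, read −0.57, 0.05, 0.33 and 1.23 and was 3.48-fold higher at 15 than at 0 weeks.

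CD7 is a surface receptor of the immunoglobulin family on T and NK cells and their precursors. Cd7 read −2.97 at 0 weeks, −1.40 at 5 weeks, −0.27 at 10 weeks and −0.97 at 15 weeks on its 1 probe, above background on all 4 arrays. The lowest level was at 0 weeks and the highest at 10 weeks. It was 2.98-fold, 6.49-fold and 3.996-fold higher at 5, 10 and 15 weeks than at 0 weeks, with spot errors of 0.293 to 0.308 on the log2 scale. It was 2.18-fold higher at 10 than at 5 weeks and 1.63-fold lower at 15 than at 10 weeks. After normexp the log2 differences from 0 weeks were 0.61, 1.37 and 0.86, so that only the 10-week call remained.

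The granzymes are the proteases of cytotoxic granules. Granzyme A is abundant in NK cells, and granzyme B starts cell death by cutting caspases and their substrates in the target cell. Gzma read −0.56 at 0 weeks, −0.32 at 5 weeks, 1.62 at 10 weeks and 0.43 at 15 weeks. The first and second levels were close, the 10-week level was the highest and the 15-week level lay between. Gzma was 1.18-fold higher at 5 weeks, 4.52-fold higher at 10 weeks and 1.99-fold higher at 15 weeks than at 0 weeks, with spot errors of 0.122 to 0.146 on the log2 scale. The 15-week value lies just below the 2-fold threshold, and it was 2-fold or more under array median, detected-probe and spike-in scaling, at log2 values of 1.06, 1.19 and 1.49. It was 1.24 against the median of all measured genes, and below 2-fold under quantile scaling (0.997) and after normexp (0.77). Between neighbouring times Gzma was 3.84-fold higher at 10 than at 5 weeks and 2.28-fold lower at 15 than at 10 weeks. The latter difference, −1.19 (log2), was below 2-fold under spike-in scaling (−0.66), detected-probe scaling (−0.994) and normexp (−0.992). It was −0.94 against the median of all measured genes, and 2-fold or more under array median (−1.01) and quantile scaling (−1.15).

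A second probe without a gene name overlaps the Gzma probe with a shift of 6 bases, so that both read nearly the same letters. They are shown because they give 2 spots for 1 stretch of the transcript, at chr13:113884035-113884094 and chr13:113884029-113884088 on the minus strand in mm9. Capitals mark AATAAA.
Gzma probe: gtctgatcacaAATAAAatcaacttgaatg
Overlapping probe: tcacaAATAAAatcaacttgaatggctgca

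The overlapping probe read −0.73, −0.18, 1.58 and 0.46 at 0, 5, 10 and 15 weeks. Its differences from 0 weeks were 0.54, 2.30 and 1.18 (log2), against 0.24, 2.18 and 0.99 for the named probe. Both spots thus had the 10-week array highest and the 15-week array second. They share the RNA of each array and are not replicates of a time point.

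Gzmb read −4.79 at 0 weeks and −3.38 at 5 weeks, where it was not well above background, then −1.31 at 10 weeks and −2.99 at 15 weeks, where it was. The highest level was again at 10 weeks. It was at least 4.86-fold higher at 10 weeks and at least 1.52-fold higher at 15 weeks than at 0 weeks. The spot errors of these differences were 0.568 and 0.592 (log2), and the 15-week bound of 0.600 hardly exceeds the latter. At 10 weeks it was 4.21-fold above its own background level at 5 weeks, with a spot error of 0.387 (log2). It was 3.20-fold lower at 15 than at 10 weeks (log2 −1.68, spot error 0.249). Gzmb was the only 1 of the 8 genes measured in the 15 against 10 week comparison that stayed at least 2-fold lower under every scaling run, with log2 values from −1.68 to −1.15. After normexp it was at −0.85.

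NKG7 is a membrane protein of the granules of NK cells and cytotoxic T cells. Nkg7 has 2 probes on the plus strand of chromosome 7, shown because they differ in how far the gene moved. In mm9 the upstream probe lies at chr7:50693148-50693207 and the downstream probe at chr7:50693530-50693589, and neither shows AATAAA, so no capitals appear.
Nkg7 upstream probe: ccagtatgagatggagccagactccatttt
Nkg7 downstream probe: ccaccttgccttatccttcattggtttctt

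The downstream Nkg7 probe, which has the higher mean, read 0.61, 0.83, 1.43 and 1.17 at 0, 5, 10 and 15 weeks, above background on all 4 arrays. It was 1.16-fold, 1.76-fold and 1.47-fold higher at 5, 10 and 15 weeks than at 0 weeks, below the threshold each time, with spot errors of 0.0963 to 0.109 on the log2 scale. The upstream probe read −3.57 at 0 weeks, where it was not well above background, and −2.33, −0.86 and −0.92 at 5, 10 and 15 weeks, where it was. It then stood 2.36-fold, 6.54-fold and 6.28-fold above its own background level at 0 weeks, with spot errors of 0.508, 0.481 and 0.478 (log2). The upstream probe was 2.77-fold higher at 10 than at 5 weeks. Both probes were higher at each time on diet than at 0 weeks, and they disagree on the size. The levels at 10 and 15 weeks had no firm order. The upstream probe differed between them by −0.06 (log2, spot error 0.152), or 0.18 against the median of all measured genes, and the downstream probe by −0.26, or 0.27 with spike-in scaling. Whether Nkg7 passes the threshold depends on the probe read.

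KLRK1, also called NKG2D, is the activating receptor of NK cells and cytotoxic T cells for stress-induced ligands. Klrk1 read −5.66, −5.55, −5.56 and −6.18 at 0, 5, 10 and 15 weeks on its 1 probe, all of them in the background. Hcst, the adaptor through which the receptor signals, read −0.27, 0.07, 0.57 and 0.72 and was 1.98-fold higher at 15 than at 0 weeks. Of the ligand genes 8 of 9 were on the array, and 5 of them were above background on no array. The other 3, Raet1b, Raet1c and Raet1e, belong to 1 family of near-identical genes and can share signal. Their single values are thus uncertain, and a count over the 3 may not be one of separate readings. Raet1b read 4.205, 2.84, 3.16 and 3.86, with the 0-week array highest. Differences at 5 weeks were −1.36 for Raet1b, −1.05 for Raet1c and −1.38 for Raet1e (log2), and 3 of 3 were at least 2-fold lower, where 1.57% of all measured genes were. At 10 weeks 2 of 3 were, against 1.53% of all, and at 15 weeks 0 of 3, against 5.03% of all, with a median of −0.26.

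The promoters of Gzma, Gzmb and Nkg7 are shown because these are the 3 granule genes of the set. Each run is the 200 bases before the start site from the RefSeq promoter table of build GRCm38.p6, in which 7 of the 10 genes had an entry. Capitals mark TGTGGT, the core bound by RUNX factors, GGTGTGA, a T-box motif of the kind bound by T-bet and Eomes, and AGGAAG, an ETS motif. All were searched on both strands, so that capitals may show the reverse complement, and none of the matches below overlap. The positions are chr13:113100982-113101181 on the minus strand for Gzma, chr14:56262335-56262534 on the minus strand for Gzmb and chr7:43436938-43437137 on the plus strand for Nkg7.
Gzma promoter: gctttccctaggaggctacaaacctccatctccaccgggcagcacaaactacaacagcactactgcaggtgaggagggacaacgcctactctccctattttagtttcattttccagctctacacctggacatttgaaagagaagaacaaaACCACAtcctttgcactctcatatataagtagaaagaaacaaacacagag
Gzmb promoter: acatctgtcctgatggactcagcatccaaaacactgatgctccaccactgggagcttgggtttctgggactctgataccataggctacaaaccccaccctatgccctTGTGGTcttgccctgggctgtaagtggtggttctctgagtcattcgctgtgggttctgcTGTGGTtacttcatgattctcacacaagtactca
Nkg7 promoter: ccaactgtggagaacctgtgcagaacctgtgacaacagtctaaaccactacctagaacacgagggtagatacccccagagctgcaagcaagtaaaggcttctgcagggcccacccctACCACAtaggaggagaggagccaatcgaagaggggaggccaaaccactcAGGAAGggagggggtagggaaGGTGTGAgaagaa

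The RUNX core stood in 4 of the 7 promoters, once each in Gzma, Nkg7 and Klrk1 and at 2 places in Gzmb, against 11.2% of all 32851 promoters of this length. The T-box motif stood in 1 of 7, that of Nkg7, against 2.64% of all promoters. The ETS motif stood in 2 of 7, those of Nkg7 and Cd3e, against 24.7%. The cyclic AMP response element TGACGTCA, searched on both strands, stood in 0 of 7 against 1.47%, and TATAAA, searched on the gene's strand, in 0 of 7 against 6.27%. A match is a description of the letters and no evidence of a bound site, and Klrk1 shares the RUNX core although its probe stayed in the background.

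Counted over the set, 6 of the 10 genes were measured at 5 against 0 weeks, and 1 of them, Cd7, was called higher and 0 lower, against 2.3% of all 17095 measured genes higher and 1.57% lower. Their median difference was 0.26 (log2), where the median of all measured genes was −0.02. Cd3g had a bound of at least 2-fold, and Cd8a, Gzmb and Klrk1 were above background on neither array.

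At 10 against 0 weeks 6 genes were measured, and 3 were called higher and 0 lower, against 2.92% of all measured genes higher and 1.53% lower. The 3 were Cd2, Cd7 and Gzma. Bounds of at least 2-fold were found for Cd3g and Gzmb as well, as for 276 genes over the whole array. The median difference of the 6 was 1.06 (log2), against −0.01 for all measured genes. A member above background on 1 array alone had to be higher there, so its bound is a value and adds no support to the count.

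At 15 against 0 weeks 6 genes were measured, and Cd2 and Cd7 were called higher and Cd4, on its downstream probe, lower. The shares over all measured genes were 5.76% higher and 5.03% lower, larger than at the earlier times. The median of the 6 was 0.77 (log2), or 1.02 above the median gene, which was at −0.25. Cd3g had a bound of at least 2-fold and Gzmb a bound of at least 1.52-fold. The 3 comparisons with 0 weeks share the 0-week array, so that an error on that array would enter all of them.

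**Figure D2:**
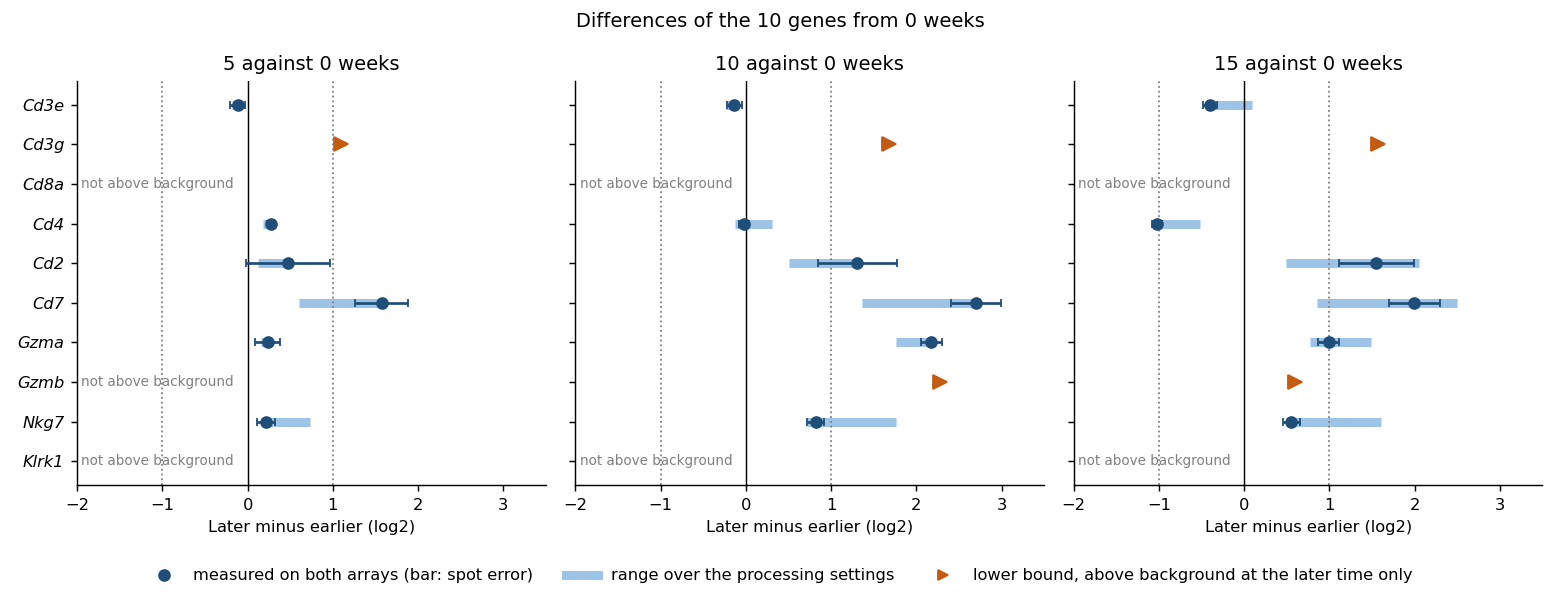
Differences of the 10 genes from 0 weeks on the log2 scale, at 5, 10 and 15 weeks, read from the probe with the highest mean. Points are genes measured on both arrays with the spot error as a thin bar and the range over the processing settings as a pale bar, triangles are lower bounds, and dotted lines mark 2-fold. Cd7 lies furthest right at 10 weeks, and Cd4 touches the lower threshold at 15 weeks.

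At 10 against 5 weeks 7 genes were measured, and Cd7 and Gzma were called higher and 0 genes lower, against 0.953% of all measured genes higher and 1.13% lower. The median of the 7 was 0.60 (log2), and Gzmb was 4.21-fold above its own background level at 5 weeks. At 15 against 10 weeks 8 genes were measured, and 0 were called higher and 3 lower, against 3.95% of all measured genes higher and 4.06% lower. The 3 were Cd4, on its downstream probe, Gzma and Gzmb. The median of the 8 was −0.48, or −0.24 against the median of all measured genes. With spike-in scaling it was 0.05, where the median of all measured genes was 0.29. With the values taken against that median, 1 of the 8 remained at least 2-fold lower.

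The wider T and NK cell genes were taken as 9 lists with 142 genes, of which 139 were on the array, and these include the 10 genes above. The lists were also chosen with earlier results of these data known. Of 66 measured at 5 against 0 weeks, 7 were called higher and 3 lower, with a median of 0.32 (log2). Of 68 at 10 weeks, 18 were higher and 3 lower, with a median of 0.66, and of 69 at 15 weeks, 26 were higher and 6 lower, with a median of 0.76. Over all measured genes the shares were 2.3%, 2.92% and 5.76% higher and 1.57%, 1.53% and 5.03% lower at these times. The medians of all measured genes were −0.02, −0.01 and −0.25. For the counts of each list below, all at 15 against 0 weeks, the shares to set beside them are 5.76% higher and 5.03% lower. At 15 against 10 weeks 4 of 76 were higher and 7 lower, against 3.95% and 4.06% of all measured genes. The median was 0.05, while Gzma, Gzmb and Cd4 were lower as given above.

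Among 22 genes of the T cell receptor and its signalling, 12 were measured at 15 against 0 weeks, and 2 were higher and 0 lower, with a median of 0.70 (log2). Cd3d, the delta chain of CD3, read −1.88, −1.39, −0.77 and −1.02 and was 2.16-fold higher at 10 and 1.82-fold at 15 weeks than at 0 weeks. Lck, the kinase that starts the receptor signal, read −0.95, −0.80, −0.36 and 0.01 and was 1.95-fold higher at 15 weeks. The 2 genes past the threshold were Fyb, an adaptor of T cells and myeloid cells, at 3.18-fold, and Skap1, an adaptor of integrin activation, at 2.03-fold. Themis, which tunes the receptor signal in developing T cells, read −5.29, −4.13, −1.96 and −1.07 and had a bound of at least 5.72-fold at 15 weeks. Lcp2, the adaptor SLP-76, had one of at least 2.88-fold. Themis, Lcp2 and Skap1 also have other probes, which were above background on no array.

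Among 13 coreceptors and adhesion receptors, 8 were measured at 15 against 0 weeks, and 7 were higher and 1 lower, with a median of 1.77 (log2). The lower one was Cd4, read from its downstream probe, and which probe reads the Cd4 transcript was not tested. Selplg, the ligand of selectins on leukocytes, was 3.81-fold higher. Itgb2 and Itgal, the chains of the integrin LFA-1, were 3.42-fold and 3.41-fold higher. Another Itgal probe gave 2.51-fold, and a further probe was above background on no array. Most of these receptors are also made by other leukocytes, so the list is not one of T cells alone.

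Among 16 genes of granules and effector molecules, 10 were measured at 15 against 0 weeks, and 2 were higher and 0 lower, with a median of 0.39 (log2). Prf1, which encodes the pore protein perforin, read −1.83, −1.65, −1.51 and −1.66, and its differences from 0 weeks were 0.18, 0.31 and 0.17. At 10 weeks, where Gzma was 4.52-fold higher, Prf1 was thus at 1.24-fold. The other granzyme genes above background did not peak at 10 weeks either. Gzmk read −1.19, −1.48, −1.22 and −1.90, and Gzmm read −2.49, −2.69, −2.59 and −2.26. The 2 genes past the threshold at 15 weeks were Serpinb6b, a protease inhibitor, at 3.27-fold, and Srgn, the proteoglycan core of granules in many leukocytes, at 2.34-fold. Tnf was above background at 15 weeks only, with a bound of at least 2.41-fold.

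Among 22 NK receptors and adaptors on the array, 13 were above background on no array. Of 6 measured at 15 against 0 weeks, 2 were higher and 0 lower, with a median of 0.99 (log2). Ncr1, the receptor that defines NK cells, read −5.72, −5.09, −5.31 and −4.56 and was never above background. Klrb1c, known as NK1.1, was above background at 15 weeks only, at −3.76, close to the floor. That level lies below the floor of each earlier array, and another Klrb1c probe was above background on no array. Klrd1, which encodes CD94, read −4.91, −4.11, −3.56 and −2.23 and had a bound of at least 2.57-fold at 15 weeks. Tyrobp, an adaptor of NK and myeloid receptors, was 4.11-fold higher, and Il2rb, the receptor chain for interleukins 2 and 15, was 2.12-fold higher.

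**Figure D3:**
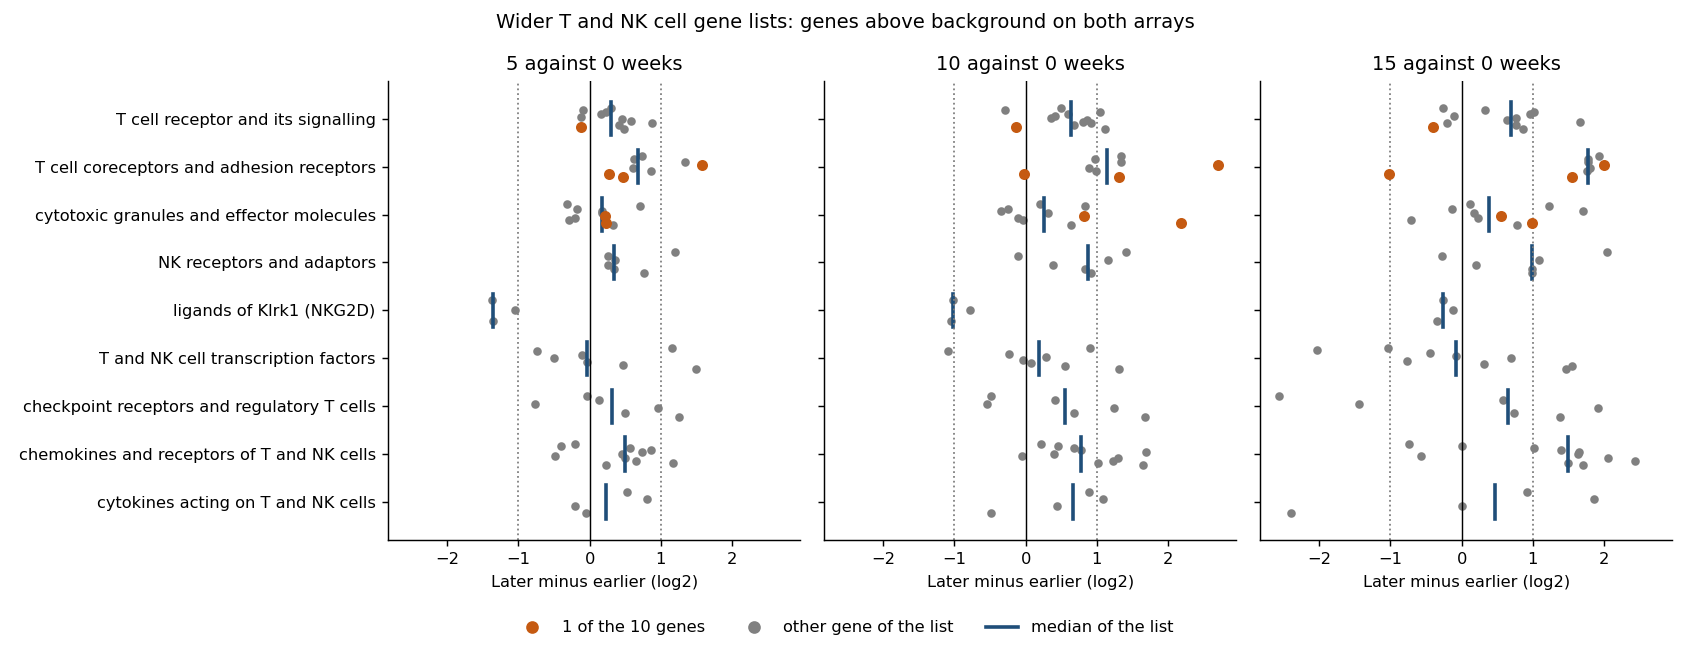
Differences from 0 weeks (log2) of the genes of 9 T and NK cell lists that were above background on both arrays, at 5, 10 and 15 weeks. Orange points are genes among the 10, grey points are the other genes, blue bars are list medians and dotted lines mark 2-fold. The adhesion receptor list has its median at 1.77 at 15 weeks, with Cd4, read from its downstream probe, apart on the left.

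Among 15 transcription factors of T and NK cells, 9 were measured at 15 against 0 weeks, and 2 were higher and 2 lower, with a median of −0.08 (log2). Eomes, a T-box factor of NK and memory T cells, read −3.07, −5.32, −5.34 and −1.61, above background at 0 and 15 weeks only, and was 2.75-fold higher at 15 weeks. Its other probe was above background on no array. Ets1 was 2.92-fold higher, or 1.56-fold on its other probe. Tox read 1.33, 0.59, 0.24 and −0.71 and was 4.10-fold lower at 15 weeks, and its other probe gave 4.31-fold. Zbtb16, a factor of innate-like T cells, was 2.04-fold lower at 15 weeks and 2.23-fold higher at 5 weeks.

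Among 15 checkpoint and regulatory T cell genes, 6 were measured at 15 against 0 weeks, and 2 were higher and 2 lower, with a median of 0.66 (log2). Cd86, a costimulatory ligand on antigen-presenting cells, was 3.78-fold higher, and Cd274, which encodes PD-L1, was 2.60-fold higher. Lag3, a checkpoint receptor, was 2.73-fold lower. Tnfrsf9 was 5.91-fold lower on a probe that read 7.43, 7.39, 6.94 and 4.86, and its other probe was above background on no array. Which of these probes reads the Tnfrsf9 transcript in liver was not tested, so the lower value may not be that of Tnfrsf9. Tnfrsf18, a receptor of regulatory T cells, had a bound of at least 3.30-fold at 15 weeks. Foxp3, the factor that defines regulatory T cells, was above background on no array.

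Among 16 chemokines and their receptors, 11 were measured at 15 against 0 weeks, and 8 were higher and 0 lower, with a median of 1.49 (log2). Ccl5, a chemokine made by activated T and NK cells, read 1.65, 1.89, 3.31 and 3.36 and was 3.15-fold higher at 10 and 3.27-fold higher at 15 weeks. Cxcl9 and Cxcl10, the interferon-induced ligands of the receptor CXCR3, were 3.14-fold and 4.17-fold higher at 15 weeks. Another Cxcl10 probe was above background on no array. Ccr7, a receptor for homing to lymph nodes, was 5.39-fold higher. Ccl4 read −3.42 at 0 weeks, in the background, and −2.66, −1.42 and 0.61 later. At 15 weeks it was 16.4-fold above its own background level at 0 weeks. Among 12 cytokine genes 4 were measured, and Il2rg, the common receptor chain, was 3.63-fold higher. Il15ra was 5.26-fold lower on a probe that read 7.54, 7.49, 7.06 and 5.14, levels that run close to those of the Tnfrsf9 probe, and 1.23-fold lower on its other probe. Which of them reads the Il15ra transcript was not tested either.

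Markers of other cells in the liver moved over the same arrays. The medians of 7 measured markers of all leukocytes were 0.72, 1.03 and 1.84 (log2) at 5, 10 and 15 weeks against 0 weeks, and those of 13 markers of Kupffer cells and macrophages were 0.88, 1.18 and 1.52. Both were still higher from 10 to 15 weeks, by 0.81 and 0.31, where the median of the 8 measured T and NK genes was −0.48. The leukocyte medians at 5 and 15 weeks are the values of Rac2, which had 5 and 9 bright neighbours on those arrays. Timd4, among the macrophage markers, had 12 at 0 weeks. Of 8 T cell markers 6 were on the array, and the 5 measured ones had medians of 0.42, 0.68 and 0.76. The summed level of all 6, Cd3g included, was 2.26, 2.31, 2.45 and 2.29 (log2) at 0, 5, 10 and 15 weeks. Cd3e has the highest level in that sum, on a probe whose reading of Cd3e alone was not tested. Of 7 NK cell markers 2 were above background on all arrays, Gzma and Prf1, and Klrb1c, Klrd1 and Klra8 were so at 15 weeks alone. The 15-week array has the lowest floor of the 4. All 11 hepatocyte markers on the array were above background on all 4 arrays, and they had medians of −0.03, 0.04 and −0.53, and 7 endothelial markers had medians of 0.30, 0.05 and 0.09. The 5 measured B and plasma cell markers had medians of 0.34, 0.56 and 0.65. Among them Jchain, which joins secreted antibodies, read −1.60, −1.85, −0.13 and −0.76, highest at 10 weeks like Gzma. The other measured ones did not share this, with Cd79a highest at 5 weeks and Cd79b, Cd22 and Mzb1 highest at 15 weeks. Dendritic cell markers had medians of 0.29, 0.79 and 1.14 over 6, 5 and 6 measured genes. Neutrophil and mast cell markers had medians of 0.25, 0.26 and 0.78, and 2 of them, S100a8 and S100a9, were 6.02-fold and 5.47-fold higher at 10 weeks and 6.15-fold and 5.30-fold at 15 weeks than at 0 weeks. The others measured at both times, Ly6g, Camp and Tpsb2, differed by 0.26, 0.22 and 0.06 (log2) at 10 weeks. At 15 weeks they differed by −0.21, 0.78 and −0.20. Jchain, S100a8 and S100a9 were singled out after their values were seen. The part of these cell types in the levels of the 10 genes was not tested.

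**Figure D4:**
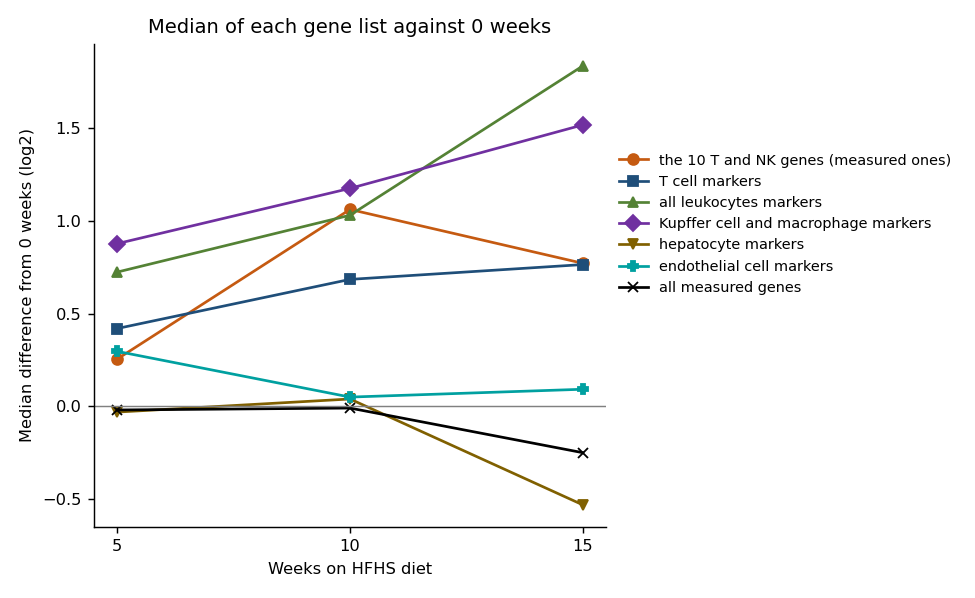
Median difference from 0 weeks (log2) of each gene list against weeks on the HFHS diet, over the genes above background on both arrays. The orange line, the measured genes among the 10, is at 1.06 at 10 weeks and 0.77 at 15 weeks, while the leukocyte line goes from 1.03 to 1.84 and the line of all measured genes from −0.01 to −0.25.

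Likeness was measured as the distance between log2 differences from 0 weeks at 5, 10 and 15 weeks, over 4 arrays and 12685 named genes. The target was the median of the 6 members above background on all arrays, at 0.26, 1.06 and 0.77. The nearest 8 genes were Ociad2, Acat2, Syt3, Galk2, Slc13a5, Ogfrl1, Syne4 and Gm10693, at distances from 0.135 to 0.234, and Ociad2, the nearest, stood at 0.34, 0.96 and 0.76. The 3 differences share the 0-week array. The members spread around that median, at 5 and 10 weeks from Cd3e at −0.12 and −0.13 to Cd7 at 1.57 and 2.70, and at 15 weeks from Cd4 at −1.02 to Cd7 at 1.999.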

How the data were processed

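The 4 liver RNAs were labelled with Cy3 and hybridised to 1-colour Agilent arrays, read with Agilent Feature Extraction 10.7.3.1, per the file headers. The deposited scanner files hold, per the file headers, a processed intensity from which the software had removed background and spatial trends, raw mean and local background intensities, and other values that mark spots as well above background, saturated or uneven. The deposited value table held the same processed intensity divided by each array's median, with linear scale and no centring, and the ratio was constant over spots. All scans carry 1 scan time.

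Each array's processed intensity was divided by its 75th percentile, control spots left out, and taken as log2. Uneven and outlier spots were left out, spots of a probe were averaged, and a gene was read from its probe with the highest mean. Of 55681 probes, 27509 were named by accession through the RefSeq table of GRCm38.p6, 3549 by symbol and 404 by older symbol, and 24219 kept the file's name. Probe positions are in mm9. Spot error came from repeated probes within 0.5 log2 of a level. A neighbouring spot was looked for within 4 rows and 2 columns.

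The members and lists were chosen with earlier results of these data known. Named were all 10 members, up to 5 genes per list with the largest difference or bound of at least 2-fold at 15 against 0 weeks, and Cd3d, Lck, Ncr1, Klrb1c and Prf1. Cd48, Hcst, Foxp3, Gzmk, Gzmm and the Raet1 genes were named for their role or after their values were seen. Alternatives were 12 planned settings of scaling, background, probe, spot and threshold, and 1 added later, the other probe of a gene. The computation was tested on simulated data. Tools were Python 3.11.15, numpy 2.4.6, pandas 2.3.3, R 4.3.3 and limma 3.58.1 (normexp).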

Additional observations from a re-analysis of the deposited data

How the results depend on the processing

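No paired analysis was possible because each time point is 1 array, and no array could be left out. Of 202 counts under other settings 164 stayed within 1.5 times the reported count and 38 moved, and no called difference of a member changed sign. The 164 include counts of 0 that stayed 0 and settings that could hardly change a count, so they do not measure how firm the calls are. For the 10 genes, leaving the background filter out gave 3 higher and 1 lower at 5 weeks, 5 higher at 10 weeks and 4 higher at 15 weeks, all against 0 weeks, and 4 higher at 10 against 5 weeks. The normexp correction with an offset of 50, which compresses dim probes, gave 0 higher at 5 and 15 weeks against 0, 1 higher at 10 against 5 weeks and 0 lower at 15 against 10 weeks. Spike-in scaling gave 4 higher at 15 against 0 weeks, and the other probe gave 1, with only 3 members measured. The 1 lower call at 15 against 0 weeks, Cd4, became 0 under median, detected-probe, quantile, spike-in and relative scaling, normexp and the probe mean. The deposited table, the same intensity over each array's median, repeats median scaling and is no separate check. The other Cd4 probe could not give a call, since it was in the background at both times. At 15 against 10 weeks 1 gene was lower under detected-probe, spike-in and relative scaling. A threshold of 1.5-fold gave 5 higher at 10 against 5 weeks. For the wider lists, higher counts at 5, 10 and 15 weeks against 0 were 17, 38 and 54 without the filter and 3, 6 and 17 after normexp, 19 and 36 at 5 and 10 weeks with 1.5-fold, and 40 at 15 weeks with spike-in scaling. Lower counts were 6 and 5 without the filter at 5 and 10 weeks, 5 with 1.5-fold at 5 weeks, and 3 with spike-in scaling and 3 after normexp at 15 weeks. The shares of all genes called under these other settings were not computed, for the 10 genes or for the lists. The counts can thus not be set against a share. Without the filter 34753 genes were compared at 5 against 0 weeks, where 17095 were measured with it. The median of all measured genes at 15 against 0 weeks ranged from −0.25 to 0.25 over the scalings, the latter with spike-in probes. Signals of Cd8a, Klrk1 and most NK receptors lay in the background, where no difference could be measured.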
